A study of Mus musculus with 53 samples.

Results

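The transcripts described here belong to 7 genes that sense or break down extracellular nucleotides and related lipids on microglia: P2ry12, P2ry13, P2ry6, Gpr34, P2rx4, P2rx7 and Entpd1. They were taken as a fixed list of symbols, and all 7 were found among the 54393 gene identifiers counted in both brain regions of the study. The study counted 3'-biased sequencing reads in whole-tissue RNA of C57BL6/J mice at postnatal day 119, in 19 libraries of the central nucleus of the amygdala (CeA) and 34 of the medial prefrontal cortex (mPFC). Mice ate control diet or chow with 1200 ppm PLX5622, an inhibitor of CSF1R, the receptor through which microglia receive their survival signal. The diet ran for 28 days before a 4-week ethanol phase, in which chronic intermittent exposure was combined with choice drinking of 15% ethanol, and tissue was collected 24 hours after the final exposure. Dependence is a label on each mouse (dependent or non-dependent), and the labels do not say what treatment the non-dependent mice had. On control diet, CeA was sampled from 6 non-dependent and 5 dependent mice and mPFC from 7 and 9. On PLX5622, CeA was sampled from 4 mice of each history and mPFC from 9 of each. PLX5622 acts on every cell that needs CSF1R, so macrophages at the borders of the brain are exposed to it as well as microglia.

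Microglia read nucleotides in their surroundings with several kinds of receptor. P2RY12 and P2RY13 are G protein-coupled receptors for ADP, and P2RY12 guides microglial processes toward sites where ATP has been released. P2RY6 is a receptor for UDP linked to phagocytosis, and GPR34 is a related receptor for lysophosphatidylserine. P2RX4 and P2RX7 are cation channels opened by ATP, P2RX7 being the one that feeds the inflammasome, and both are also described outside microglia in the brain. ENTPD1 (CD39) is the surface enzyme that removes phosphates from ATP and ADP, and it is also known from the lining of blood vessels.

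Gene counts summed to between 1062443 and 1968971 per CeA library and between 1531574 and 2607438 per mPFC library, so a level of 1 CPM (a gene's count per 1000000 counted in genes) stood for about 1 to 3 reads. Reads of added spike-in RNA numbered 11745 or more in 12 libraries, 3 in each dependent group, and 316 or fewer in every other library, and the 12 are called the libraries holding spike-in RNA. Region markers followed the labels: the summed level of 5 central amygdala genes was 513 to 711 CPM in CeA libraries and 251 to 339 CPM in mPFC libraries. Libraries of the 2 regions were read on different instruments and counted with different annotation releases, so region cannot be told apart from these. A summed panel of 18 homeostatic microglia genes, none of them among the 7, was at 338 to 547 CPM in control CeA libraries and 41.3 to 69.3 CPM with PLX5622, and at 355 to 463 CPM against 33.7 to 113.02 CPM in mPFC. Itgam and Trem2 of that panel were at 0 in every group. The 10 markers of border macrophages summed to 10.8 to 25.8 CPM in control CeA and 0.941 to 12.3 CPM with PLX5622, and to 11.7 to 31.1 CPM against 0 to 12.8 CPM in mPFC. In whole-tissue RNA, fewer cells of a type and less RNA per cell cannot be told apart.

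The genes lie on 5 chromosomes (GRCm38, GENCODE M21). P2ry13 (chr3:59207892-59210882, minus strand) and P2ry12 (chr3:59216272-59262871, minus strand) are 5389 bases apart, and both lie within the span of Med12l, which is transcribed from the other strand. P2ry12 shares 9 exonic bases with Med12l and P2ry13 shares 0. P2rx7 (chr5:122643911-122691432, plus strand) and P2rx4 (chr5:122707544-122729738, plus strand) are also neighbours, with 16111 bases between them. P2ry6 is at chr7:100937630-100974649 on the minus strand and Entpd1 at chr19:40612366-40741602 on the plus strand. Gpr34 (chrX:13632089-13640858, plus strand) lies within Cask, which runs on the minus strand, and shares 0 exonic bases with it.

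RefSeq start sites on GRCm38.p6 were listed for 5 of the 7 genes, with 7 promoters in all, and P2ry6 and Gpr34 were not among them. The 250 bases before each start were read on both strands for GAGGAAG and GGAAGT. These are purine-rich cores of the kind bound by ETS-family factors such as PU.1, and their part in the levels of these genes was not tested. The motifs were chosen after the letters had been seen, and they share the letters GGAAG and can overlap. The 3 windows that hold one are shown with the motif in capitals, 5′ to 3′ on the gene's own strand.
P2ry12, GGAAGT starting 51 bases before the start, chr3:59263019-59263048, minus strand: agctaacaagaaGGAAGTtccccagtgaca
P2ry13, GAGGAAG starting 48 bases before the start, chr3:59210912-59210941, minus strand: caaggggaaatGAGGAAGgaaaagcagtat
Entpd1, downstream start, GAGGAAG starting 227 bases before it, chr19:40659532-40659561, plus strand: acggaggaaaaGAGGAAGgaaggggaagga
Neither motif was found in the upstream promoter of Entpd1, the promoter of P2rx4 or either promoter of P2rx7. GAGGAAG is present in 10.6%, GGAAGT in 19.7% and either motif in 26.4% of the 32851 promoters of the table over the same 250 bases. A match is therefore common and describes letters, not a binding site.

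The share of control counts left with PLX5622 set 4 of the 7 transcripts apart from the other 3. P2ry12, P2ry13, P2ry6 and Gpr34 were nearly lost, with between 0% and 7.29% of the control counts remaining in the 4 diet comparisons. Entpd1 kept 37.5% to 54.0% and P2rx7 kept 54.4% to 76.0%. P2rx4 kept 76.2% to 99.9%, and no comparison called it. A gene was called when the edgeR quasi-likelihood test, adjusted by Benjamini-Hochberg over all genes of the comparison, gave p under 0.05. In CeA, 2 of 5 tested members were called lower in non-dependent mice, where 0.486% of 11721 genes were called lower, and 2 of 5 in dependent mice, where 0.401% were. In mPFC, 4 of 6 were called lower in non-dependent mice, where 0.616% of 12331 genes were, and 5 of 6 in dependent mice, where 0.868% were. No member was called higher, where 0.452% and 0% of genes were in CeA and 0.00811% and 0.0405% in mPFC. The median log2 fold change of the tested members was -0.85 and -0.91 in the 2 CeA comparisons and -2.57 and -2.62 in mPFC, where the median of all genes was within 0.01 of 0 in each. P2ry6 in both regions and P2ry13 in CeA had too few counts to enter the fit. The medians of the 2 regions therefore rest on different members and are not compared. P2ry12, Gpr34 and, in mPFC, P2ry13 passed the filter on low counts through their control libraries. With PLX5622 they were at 4.73 CPM or less in every library. The direction of their calls, and of the medians that include them, was thus largely set by entry into the fit. The counts of calls are not separate evidence of it.

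**Figure D1:**
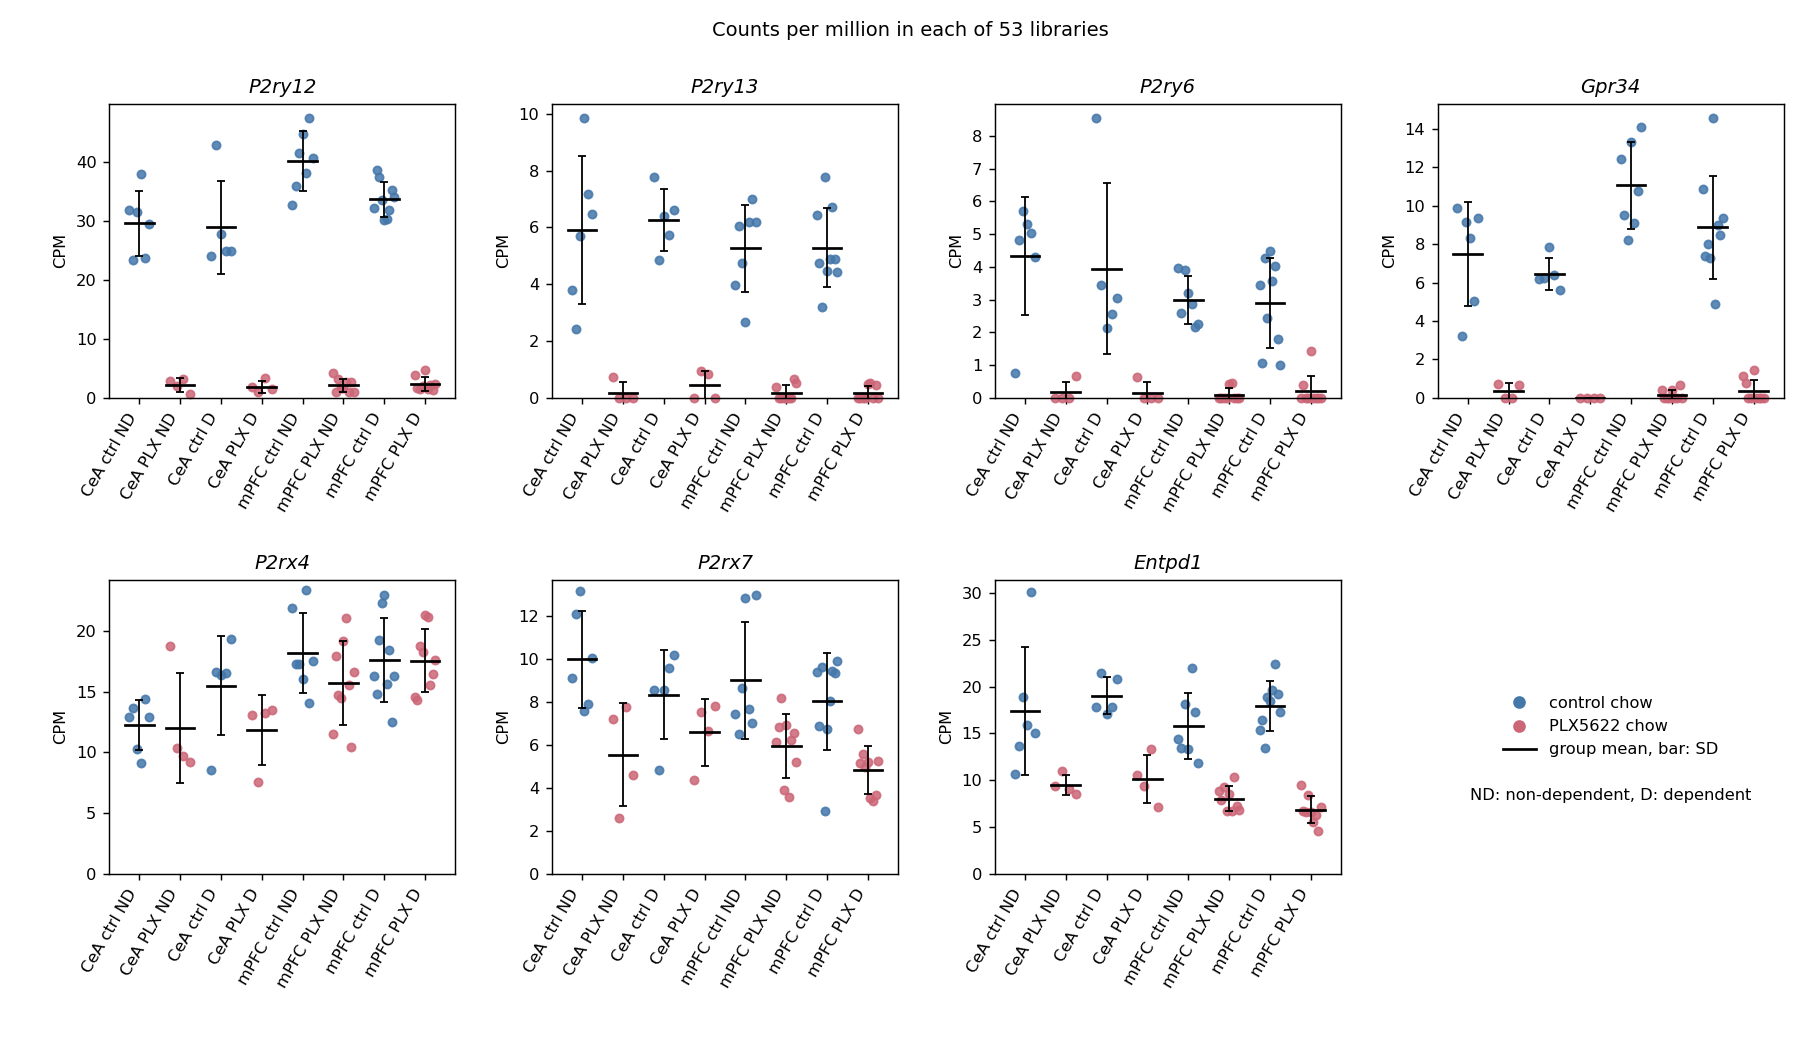
Level (CPM, vertical axis) of each of the 7 transcripts in every library, by region, diet and dependence label. Black lines are group means and bars are SD. P2ry12 stands between 23.3 and 47.5 CPM in control libraries and at 4.73 CPM or less with PLX5622, while the P2rx4 points of both diets lie over one another.

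**Figure D2:**
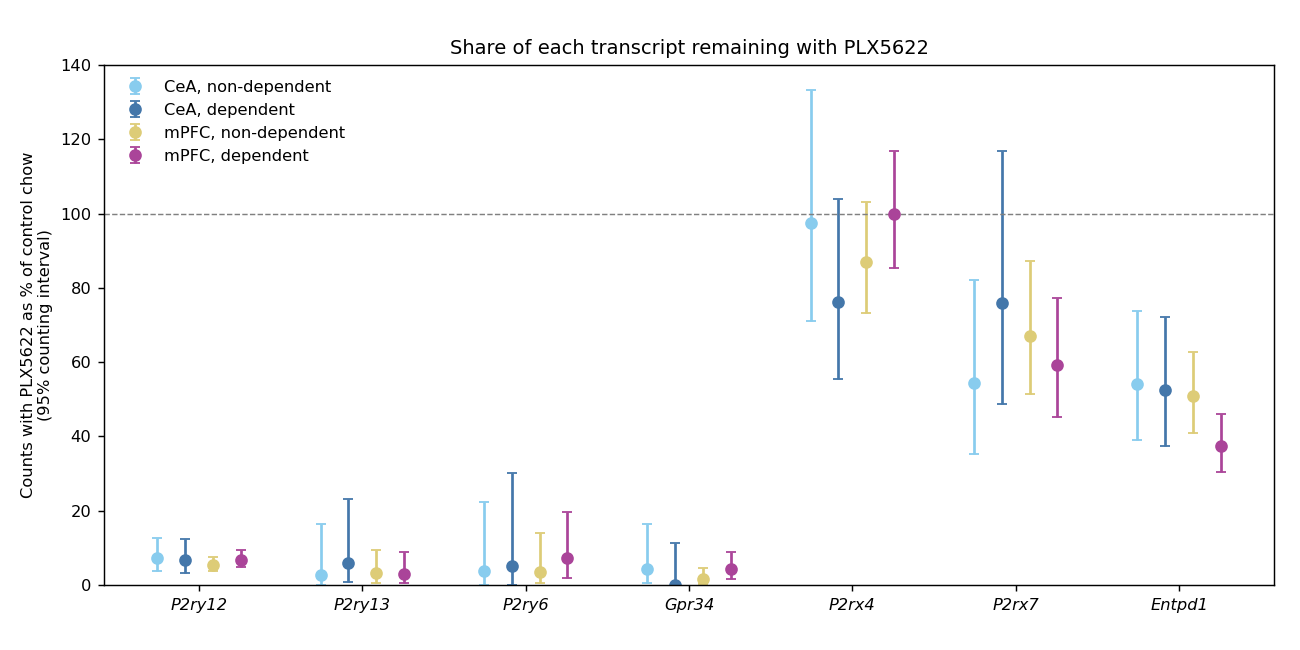
Counts with PLX5622 as a percent of control diet, from summed counts and summed library sizes, with 95% counting intervals, for the 4 diet comparisons. P2ry12, P2ry13, P2ry6 and Gpr34 lie at 7.29% or less, Entpd1 at 37.5% to 54.0%, P2rx7 at 54.4% to 76.0% and P2rx4 at 76.2% to 99.9%.

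P2ry12, the ADP receptor most often used to identify resting microglia, was called lower in all 4 diet comparisons. CPM in the 6 control non-dependent CeA libraries ran from 23.3 to 37.9 with a median of 30.4, and the 4 PLX5622 libraries read 0.655, 1.95, 2.89 and 3.23 CPM. The 5 control dependent CeA libraries read 24.1, 24.8, 24.9, 27.8 and 42.9 CPM, and the 4 PLX5622 dependent libraries 0.941, 1.42, 1.87 and 3.32 CPM. Neither pair of groups overlapped. In mPFC the 7 control non-dependent libraries spanned 32.8 to 47.5 CPM (median 40.6) and the 9 PLX5622 libraries 1.04 to 4.22 CPM (median 1.67). The 9 control dependent libraries spanned 30.2 to 38.6 CPM (median 33.5) and the 9 with PLX5622 1.37 to 4.73 CPM (median 1.98). Every PLX5622 library was below every control library here too. The log2 fold change was -3.69 ± 0.30 (SE, edgeR adjusted p = 1.4e-11) and -3.86 ± 0.33 (adjusted p = 4.0e-11) in CeA of non-dependent and dependent mice. The corresponding mPFC values were -4.16 ± 0.17 (edgeR adjusted p = 1.3e-28) and -3.83 ± 0.16 (adjusted p = 1.9e-27). The share remaining was 7.29% (95% counting interval 3.83 to 12.7%) and 6.60% (3.12 to 12.4%) in CeA, and 5.49% (3.88 to 7.57%) and 6.86% (4.93 to 9.32%) in mPFC. These intervals cover counting error only.

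P2ry13, the other ADP receptor and the chromosomal neighbour of P2ry12, fell in all 4 comparisons. Its 6 control non-dependent CeA libraries spanned 2.42 to 9.85 CPM (median 6.09). Of the 4 PLX5622 libraries, 3 held no read and 1 held a single read, at 0.722 CPM. Dependent control mice read 4.84, 5.73, 6.41, 6.60 and 7.76 CPM in CeA, and their PLX5622 counterparts 0, 0, 0.830 and 0.941 CPM. The groups did not overlap in either comparison. Exact two-sided permutation tests of log2(CPM + 1) gave p = 0.00476 and p = 0.00794, the smallest these group sizes allow, and were used because the fit left P2ry13 out. In mPFC the control libraries spanned 2.67 to 7.02 CPM (median 6.05) in non-dependent and 3.21 to 7.76 CPM (median 4.90) in dependent mice. The PLX5622 libraries of both histories had a median of 0 and highest values of 0.653 and 0.503 CPM. All 9 PLX5622 libraries again lay below all controls in each history. Counts fell from 75 to 3 in non-dependent mice, 32.0-fold lower per library size (95% counting interval 10.5 to 159), with an edgeR adjusted p of 5.1e-12. They fell from 98 to 3 in dependent mice, 33.9-fold lower (11.3 to 167), with an edgeR adjusted p of 4.3e-13. Without mPFC control dependent replicate 1, 9 or 26, P2ry13 had too few counts to be tested there.

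P2ry6, the UDP receptor, was the member with the fewest reads. In control CeA it spanned 0.760 to 5.72 CPM (median 4.93) in non-dependent mice, and dependent mice read 2.14, 2.55, 3.05, 3.46 and 8.54 CPM. With PLX5622 a single read was found in 1 of 4 libraries of each history, at 0.655 and 0.623 CPM, and none in the others. The groups did not overlap, although the control library at 0.760 CPM rests on 1 read and differs from the highest PLX5622 library by less than counting error. The summed counts were 37 against 1, or 26.4-fold lower (95% counting interval 4.45 to 1070), in non-dependent mice. They were 29 against 1, or 20.0-fold lower (3.31 to 815), in dependent mice. In mPFC the 7 control non-dependent libraries spanned 2.16 to 3.97 CPM (median 2.87) and 7 of 9 PLX5622 libraries held no read, the other two reading 0.407 and 0.448 CPM. Control dependent libraries spanned 0.988 to 4.48 CPM (median 3.46), and 7 of 9 PLX5622 dependent libraries held no read. Here the groups overlapped in 1 library: PLX5622 dependent mouse 30 held 3 reads, at 1.42 CPM, above the 2 lowest controls. Exact two-sided permutation tests gave p = 0.00476 and p = 0.00794 in CeA and p = 8.74e-05 and p = 0.000123 in mPFC, of which the first 3 are the smallest these group sizes allow.

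Gpr34, the lysophosphatidylserine receptor, was called lower in all 4 comparisons. In CeA of non-dependent mice it spanned 3.22 to 9.88 CPM (median 8.74) on control diet and read 0, 0, 0.655 and 0.722 CPM with PLX5622. Counts fell from 64 to 2, a 22.8-fold difference (95% counting interval 6.07 to 193; edgeR adjusted p = 1.5e-05). In dependent mice the 5 controls read 5.59, 6.21, 6.23, 6.37 and 7.83 CPM and no read was found in any of the 4 PLX5622 libraries. Taking 3 counts over the whole group as the floor, it was at least 11.2-fold lower (edgeR adjusted p = 1.6e-05). This call was lost without the libraries holding spike-in RNA (adjusted p = 0.326), where 2 control libraries and 1 PLX5622 library, which held no read of Gpr34, were left. In mPFC of non-dependent mice the controls spanned 8.21 to 14.1 CPM (median 10.8), and 6 of 9 PLX5622 libraries held no read, the others reading up to 0.653 CPM. Counts went from 155 to 3, 66.1-fold lower (22.2 to 324; edgeR adjusted p = 1.2e-16). Control dependent libraries spanned 4.91 to 14.6 CPM (median 8.47), against 0 to 1.42 CPM (median 0) with PLX5622, a log2 fold change of -4.37 ± 0.36 (edgeR adjusted p = 1.2e-14). The diet groups did not overlap in any of the 4 comparisons.

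Over the genes tested, all PLX5622 libraries lay below all control libraries in 1.59% and 1.47% of genes in CeA of non-dependent and dependent mice, and in 0.527% and 0.438% in mPFC. P2ry12 and Gpr34 were among these in each comparison, P2ry13 in both mPFC comparisons and Entpd1 in 3 of 4. P2ry12, Gpr34 and P2ry13 were tested only because of their control levels, so their direction here was largely set by the filter. P2ry13 in CeA, and P2ry6 in 3 of 4 comparisons, also had no overlap, but they were not among the genes tested and are not part of those shares. P2rx4 and P2rx7 overlapped in all 4.

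Entpd1, the ATP- and ADP-degrading enzyme, fell in both mPFC comparisons, and the CeA differences did not pass the test. CeA libraries of control non-dependent mice spanned 10.6 to 30.1 CPM (median 15.5), and the PLX5622 libraries read 8.51, 9.03, 9.38 and 11.0 CPM. The groups overlapped through the single control library at 10.6 CPM. Dependent controls read 17.1, 17.8, 17.9, 20.8 and 21.5 CPM, all above the PLX5622 values of 7.10, 9.41, 10.6 and 13.3 CPM. Neither CeA difference was called, at -0.85 ± 0.24 (SE, log2, edgeR adjusted p = 0.0862) and -0.91 ± 0.25 (adjusted p = 0.142). Without control non-dependent replicate 14 the first was called (-0.96, edgeR adjusted p = 0.035), and with no filter on low counts both were (adjusted p = 0.0302 and 0.0415). For the single gene, exact two-sided permutation tests of log2(CPM + 1) gave unadjusted p = 0.0238 and p = 0.00794. In mPFC of non-dependent mice the controls spanned 11.8 to 22.0 CPM (median 14.4) and the PLX5622 libraries 6.67 to 10.4 CPM (median 7.90). In dependent mice these were 13.4 to 22.4 CPM (median 18.5) and 4.58 to 9.52 CPM (median 6.62). Neither mPFC pair overlapped, and both were called, at -0.97 ± 0.15 (edgeR adjusted p = 2.6e-06) and -1.40 ± 0.14 (adjusted p = 7.6e-12). The share left was 50.8% (95% counting interval 41.0 to 62.8%) in non-dependent and 37.5% (30.4 to 46.1%) in dependent mPFC. The difference between these 2 diet effects was -0.43 ± 0.21 on the log2 scale and was not called (edgeR adjusted p = 1.00). The 7 markers of endothelium, where Entpd1 is also known, summed to 222 to 305 CPM in control mPFC and 224 to 327 CPM with PLX5622. In mPFC 0 of 7 were called in either comparison, with 2 below 0 in non-dependent and 6 in dependent mice. In CeA the sums were 203 to 229 CPM on control diet and 176 to 209 CPM with PLX5622 in non-dependent mice. Those of dependent mice were 175 to 236 and 174 to 236 CPM, and 0 of 6 tested were called in either CeA comparison. The part of endothelium in the Entpd1 levels was not tested.

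P2rx7, the ATP-gated channel upstream of the inflammasome, was lower with PLX5622 on average in each comparison, and was called by edgeR in 1 of 4. In CeA of non-dependent mice it spanned 7.58 to 13.2 CPM (median 9.59) on control diet and read 2.59, 4.58, 7.22 and 7.74 CPM with PLX5622. Dependent controls read 4.84, 8.54, 8.54, 9.55 and 10.2 CPM, and the PLX5622 libraries 4.36, 6.64, 7.53 and 7.81 CPM. Both pairs of groups overlapped, and neither difference was called, at -0.83 ± 0.30 (edgeR adjusted p = 0.279) and -0.37 ± 0.31 (adjusted p = 0.974). In mPFC of non-dependent mice the control range was 6.48 to 13.0 CPM (median 7.64) and the PLX5622 range 3.58 to 8.16 CPM (median 6.22), a difference of -0.58 ± 0.20 that was not called (edgeR adjusted p = 0.436). In dependent mPFC the ranges were 2.91 to 9.88 CPM (median 9.36) and 3.36 to 6.72 CPM (median 5.15). Of the 9 controls, 7 were above every PLX5622 library, and the lowest library of all 18 was a control. The log2 fold change was -0.75 ± 0.20 (edgeR adjusted p = 0.0469). That call was lost in DESeq2 (adjusted p = 0.0678), in 14 of 18 fits that each left out 1 library (adjusted p up to 0.128), and when libraries with spike-in RNA were dropped, where the difference was -0.51 (adjusted p = 0.910). For the single gene, exact two-sided permutation tests gave unadjusted p = 0.00952 and p = 0.278 in CeA and p = 0.00726 and p = 0.00559 in mPFC of non-dependent and dependent mice. In CeA of non-dependent mice, 8 oligodendrocyte markers summed to 2410 to 3632 CPM on control diet and 1740 to 3345 CPM with PLX5622, and 5 striatal markers to 259 to 1276 CPM and 165 to 354 CPM. Of these, 0 of 8 and 0 of 5 were called, and their part in the CeA values of P2rx7 and Entpd1 was not tested.

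P2rx4, the other ATP-gated channel, was not called in any diet comparison. CeA levels in non-dependent mice were 9.09 to 14.3 CPM (median 12.9) on control diet and 9.17, 9.68, 10.4 and 18.8 CPM with PLX5622. Dependent mice read 8.54, 16.4, 16.6, 16.6 and 19.3 CPM on control diet and 7.53, 13.1, 13.3 and 13.5 CPM with PLX5622. The mPFC ranges of non-dependent mice were 14.0 to 23.4 CPM (median 17.3) and 10.4 to 21.1 CPM (median 15.6). Those of dependent mice were 12.5 to 22.9 CPM (median 16.3) and 14.3 to 21.3 CPM (median 17.6). All 4 pairs of groups overlapped. The log2 fold changes were -0.01 ± 0.24, -0.37 ± 0.24, -0.21 ± 0.13 and 0.00 ± 0.12, in the order CeA non-dependent, CeA dependent, mPFC non-dependent and mPFC dependent (edgeR adjusted p from 0.974 to 1.00). Exact two-sided permutation tests gave unadjusted p from 0.16 to 0.964. The share left was 97.5% (95% counting interval 71.0 to 133.3%), 76.2% (55.4 to 103.98%), 86.9% (73.2 to 103.1%) and 99.9% (85.4 to 116.8%). A fall to the few percent seen for P2ry12 lies outside each of these intervals.

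**Figure D3:**
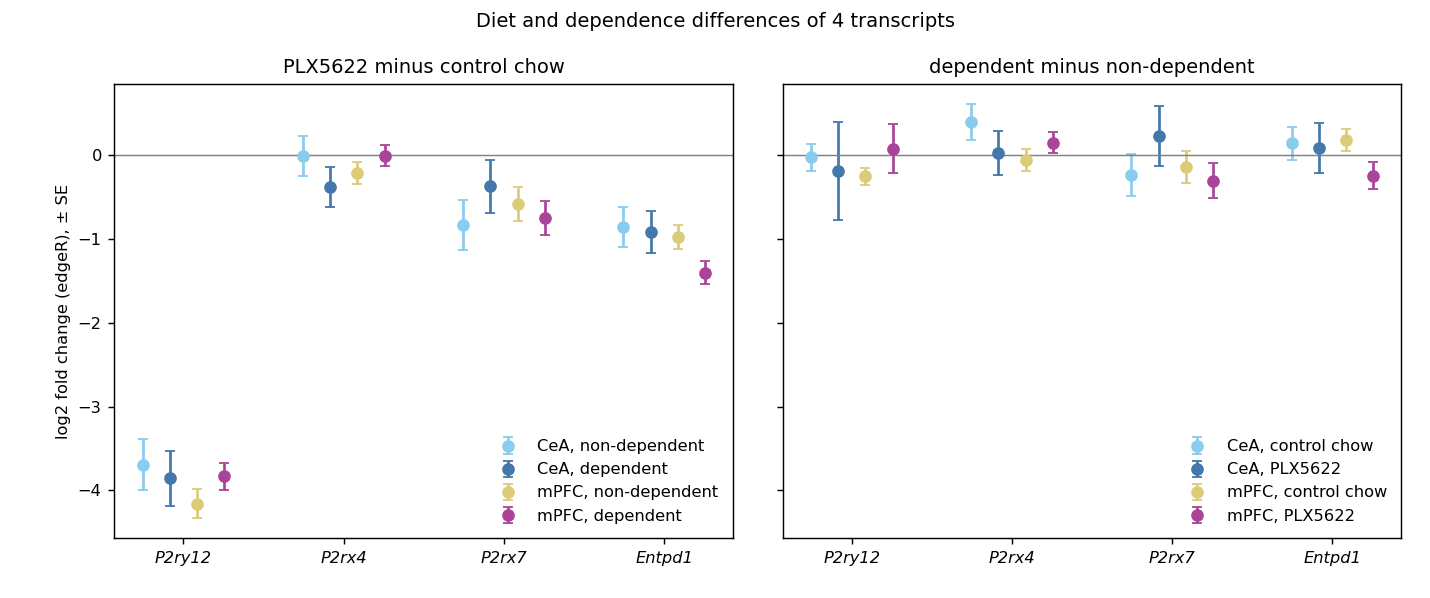
Log2 fold change (edgeR, ± SE) of the 4 transcripts with more than 3 reads in every group, for PLX5622 against control diet (left) and for dependent against non-dependent mice (right). P2ry12 lies between -4.16 and -3.69 in the diet comparisons and between -0.25 and 0.08 in the dependence comparisons.

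The ratio of each transcript to P2ry12 within the same library compares its change with that of P2ry12. The log2 ratio, with 0.5 count added to both, rose for P2rx4 by 3.64 and 3.39 in CeA of non-dependent and dependent mice and by 3.99 and 3.83 in mPFC. It rose for P2rx7 by 2.82, 3.44, 3.64 and 3.16 and for Entpd1 by 2.93, 2.83, 3.27 and 2.45 in the same order. The mean log2 ratio of Entpd1 in dependent mPFC, for example, went from -0.91 ± 0.30 (SD, n = 9) to 1.54 ± 0.48 (SD, n = 9). Each of these 12 differences reached the smallest p that an exact two-sided permutation test allows (0.00476, 0.00794, 8.74e-05 and 4.11e-05 in the same order), and all 12 passed Benjamini-Hochberg correction over the 24 ratio tests. For P2ry13, P2ry6 and Gpr34 the differences ran from -0.73 to 0.90, exact permutation p from 0.0329 to 1.0, and 0 of 12 passed the correction. With 1 count added in place of 0.5, 3 of these 12 passed, P2ry13 and P2ry6 in non-dependent mPFC and P2ry6 in dependent mPFC, so their ratios rest on the added count. All 24 ratios share the P2ry12 counts of their library, which with PLX5622 were 1 to 11 reads. P2ry12 itself kept 7.29% or less of its control counts, so the ratio rises for any gene that falls less. The 12 passes therefore restate the diet differences given above and are not separate evidence. The share of all genes with such a rise was not computed.

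**Figure D4:**
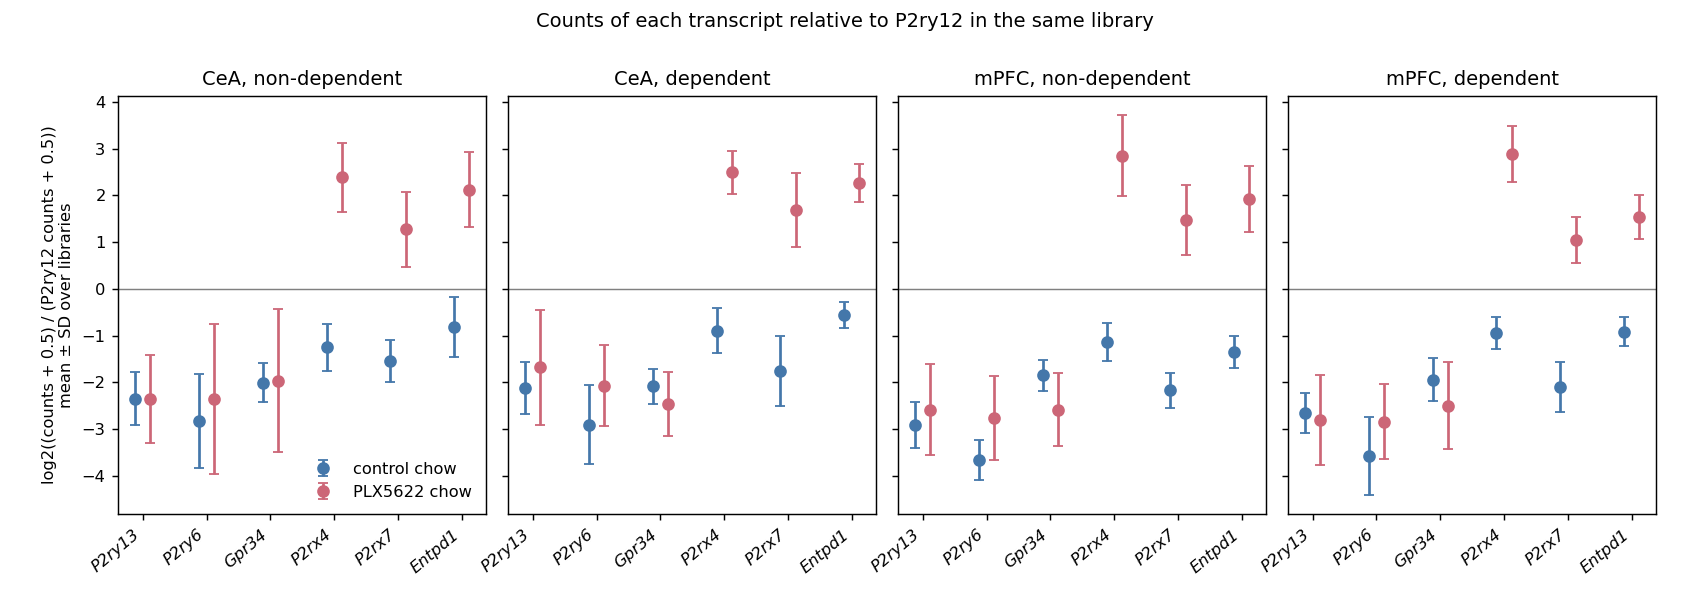
Log2 ratio of counts to P2ry12 counts in the same library (0.5 added to each), mean ± SD over libraries, on control diet and with PLX5622 in the 4 diet comparisons. The ratios of P2rx4, P2rx7 and Entpd1 lie higher with PLX5622 by 2.45 to 3.99, and those of P2ry13, P2ry6 and Gpr34 differ by -0.73 to 0.90.

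Of the 10 genes listed as chromosomal neighbours of the members, those with enough counts for the fit were not called in any diet comparison. Med12l, a Mediator subunit gene that encloses P2ry12 and P2ry13, had group means between 105.5 and 126.3 CPM over all 8 groups, and its diet differences were 0.21, -0.10, -0.05 and -0.01 on the log2 scale (CeA non-dependent, CeA dependent, mPFC non-dependent, mPFC dependent; edgeR adjusted p of 0.416 or higher). Gpr171, a receptor gene in the same Med12l span, had group means of 0.387 CPM or less. P2ry14, the UDP-glucose receptor gene also within it, had group means from 2.03 to 4.61 CPM and too few counts for the fit. The mean of P2ry14 was lower with PLX5622 than on control diet in each diet comparison. Its groups overlapped in range each time, and the difference was not tested. Cask, a synaptic scaffold gene around Gpr34, had group means from 130.6 to 174.5 CPM, and Gpr82, next to Gpr34 within Cask, had 0.138 CPM or less. Camkk2, a kinase gene 1431 bases from P2rx4, and Tctn3, which lies next to Entpd1, were not called in any diet comparison. Of the neighbours tested, 0 of 5 in each CeA comparison and 0 of 4 in each mPFC comparison were called by edgeR, with 1, 0, 0 and 1 at an unadjusted p under 0.05 in the order above. Over all genes, 1063 and 638 of 11721 in CeA and 665 and 777 of 12331 in mPFC were under that unadjusted p.

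Other genes of purine signalling, 46 in all, were listed by role: adenosine receptors and transporters, ectoenzymes, pannexins, other P2 receptors, the inflammasome downstream of P2RX7 and enzymes of lysophosphatidylserine. With PLX5622, edgeR called 0 of 19 tested in each CeA comparison, where 0.486% and 0.401% of 11721 genes were called lower and 0.452% and 0% higher. At an unadjusted p under 0.05 there were 2 and 1, where 1063 and 638 of 11721 genes were. In mPFC it called 0 of 20 in non-dependent mice and 1 of 20, lower, in dependent mice. Over all 12331 genes there, 0.616% and 0.868% were called lower. At an unadjusted p under 0.05 there were 4 of 20 in each, where 665 and 777 of 12331 genes were. These were Abhd16a, Entpd6, Il18 and Pycard in non-dependent mice, and Enpp2, Gnai2, Nt5e and Pycard in dependent mice. The median log2 fold changes of the listed genes tested were -0.11 and 0.00 in CeA and 0.02 in both mPFC comparisons. The called gene was Pycard, the adaptor that joins the NLRP3 sensor to caspase-1, at 5.20 ± 1.41 CPM (SD, n = 9) on control diet and 2.36 ± 1.28 CPM (SD, n = 9) with PLX5622 (log2 fold change -1.13, edgeR adjusted p = 0.00591). In non-dependent mPFC it was at 4.52 ± 1.38 (SD, n = 7) and 2.29 ± 0.59 CPM (SD, n = 9), a difference of -0.98 that was not called (edgeR adjusted p = 0.123). Nlrp3 itself held 9 and 14 reads in the control mPFC groups and none in either PLX5622 mPFC group, and it was too low for the fit. In CeA, reads of Nlrp3 were found in the control groups and in PLX5622 non-dependent mice, and none in PLX5622 dependent mice.

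Downstream of ENTPD1 is Nt5e (CD73), the enzyme that turns AMP into adenosine. It had group means from 7.05 to 11.3 CPM in CeA and 3.33 to 6.83 CPM in mPFC and was not called by diet or by dependence. Its unadjusted edgeR p was under 0.05 by diet in mPFC of dependent mice and by dependence in mPFC on PLX5622. Adora1, the main adenosine receptor gene of neurons, had group means from 48.0 to 62.2 CPM in CeA and 81.8 to 86.4 CPM in mPFC, and was not called by diet. Adora2a was at 1.86 to 5.14 CPM in CeA and 0.935 CPM or less in mPFC, and no read of Adora3 was found in any library. Kcnk13, the THIK-1 potassium channel gene linked in mouse microglia to ATP sensing, had group means from 21.1 to 25.7 CPM in CeA and 13.6 to 16.6 CPM in mPFC. Its diet differences were 0.06, -0.27, -0.04 and -0.27 on the log2 scale in the order above, and none was called (edgeR adjusted p from 0.881 to 1.00). P2ry1, an ADP receptor also known outside microglia, had group means from 6.47 to 10.9 CPM in CeA and 2.12 to 3.18 CPM in mPFC. P2rx6 had 1.97 CPM or less, and P2rx1, P2rx5 and Entpd2 had 0.737 CPM or less in every group.

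Dependence did not change any member beyond the test's threshold on either diet. The edgeR test called 0 of 5 tested members in CeA on control diet, where 0.00853% of 11721 genes were called, and 0 of 5 on PLX5622, where 0.0171% were. It called 0 of 6 in mPFC on control diet, where 0.00811% of 12331 genes were called, and 0 of 6 on PLX5622, where 0% were. DESeq2 called none either. At an unadjusted p under 0.05 the 4 comparisons held 0, 0, 1 and 0 members, where 716 and 697 of 11721 genes in CeA and 726 and 728 of 12331 in mPFC were. The single one was P2ry12 in mPFC on control diet, at 40.2 ± 5.07 CPM (SD, n = 7) in non-dependent and 33.7 ± 2.96 CPM (SD, n = 9) in dependent mice, groups that overlapped. Its log2 fold change was -0.25 ± 0.10 (edgeR p = 0.0182 unadjusted, adjusted p = 0.764; exact permutation p = 0.00726), so it did not pass correction. In CeA the same comparison gave 29.6 ± 5.51 CPM (SD, n = 6) and 28.9 ± 7.97 CPM (SD, n = 5), a difference of -0.02 ± 0.16 (edgeR adjusted p = 0.992). Without CeA control dependent replicate 2, which read 42.9 CPM, that difference was -0.20 (adjusted p = 0.952), and in the fit leaving out spike-in libraries it was 0.28 (adjusted p = 0.972). The difference of the diet effect between dependent and non-dependent mice was called for 0 of 5 members in CeA and 0 of 6 in mPFC, where 0% of all genes were called. At an unadjusted p under 0.05 the counts of members were 0 and 1, the latter being Entpd1, where 535 of 11721 and 354 of 12331 genes were.

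Between regions, members were called in 2 of 4 comparisons. Among control non-dependent mice, 2 of 6 tested members were called, both lower in CeA, where 46.4% of 13035 genes were called, 23.2% lower: P2ry12 at -0.39 ± 0.13 (log2, SE; edgeR adjusted p = 0.00875) and P2rx4 at -0.55 ± 0.18 (adjusted p = 0.00798). With the mouse as a replicate block neither was called, at -0.22 (edgeR adjusted p = 0.360) and -0.55 (adjusted p = 0.123). That fit kept only mice with a library in each region, here mice 17, 19 and 20, so it rests on fewer libraries. Among control dependent mice 0 of 6 were called by edgeR, where 46.6% of genes were, and P2ry12 was at -0.17 ± 0.13 (adjusted p = 0.306) and P2rx4 at -0.09 ± 0.17 (adjusted p = 0.701). Without CeA control dependent replicate 2, P2ry12 was called lower there (-0.35, adjusted p = 0.0369). Among PLX5622 non-dependent mice 0 of 6 were called, where 43.6% of genes were, and without CeA replicate 13 P2rx4 was called lower (-0.62, edgeR adjusted p = 0.0224); that CeA library had the highest P2rx4 level of its group, 18.8 CPM. Among PLX5622 dependent mice 1 of 6 was called, where 40.2% of genes were, 20.0% higher: Entpd1 was higher in CeA by 0.64 ± 0.24 (edgeR adjusted p = 0.0246). That call was lost without CeA replicate 6 or 8 and with the replicate block, here mice 6, 7, 8 and 29 (0.42, edgeR adjusted p = 0.256). Without mPFC replicate 7, P2rx4 was also called there, lower in CeA (-0.49, edgeR adjusted p = 0.0463). At an unadjusted p under 0.05 the counts of members were 2, 0, 0 and 2 of 6 in this order, where 6807, 6790, 6517 and 6155 of 13035 genes were. DESeq2 called 2, 0, 0 and 1. The size of the diet effect was not called as different between regions for any of 6 tested members in either history, where 0.046% and 0.00767% of genes were.

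Ordered by group mean, P2ry12 ran from 40.2 CPM in mPFC of control non-dependent mice through 33.7, 29.6 and 28.9 CPM in control dependent mPFC, control non-dependent CeA and control dependent CeA to 2.34 CPM or less in the PLX5622 groups. Neighbours in that order overlapped in range at every step but the one from the lowest control group to the highest PLX5622 group, and the same held for P2ry13 and Gpr34. For P2ry6, P2rx4, P2rx7 and Entpd1 every group overlapped with the next one in the order. P2rx4 was ordered by region first, with the 4 mPFC groups at 15.7 to 18.2 CPM above the 4 CeA groups at 11.8 to 15.5 CPM. P2rx7 and Entpd1 were ordered by diet first, the 4 control groups of P2rx7 at 8.03 to 9.98 CPM and those with PLX5622 at 4.82 to 6.58 CPM, and those of Entpd1 at 15.8 to 19.0 CPM and 6.83 to 10.1 CPM.

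Across the 8 group means of log2(CPM + 0.5), the Pearson correlation with P2ry12 was 0.997 for Gpr34, 0.988 for P2ry13, 0.929 for Entpd1, 0.886 for P2rx7 and 0.375 for P2rx4. Among 13029 genes outside the list, those closest to P2ry12 were Cd33 (0.9971), C1qc (0.9957), Cd84 (0.9957), Mpeg1 (0.9947) and Cx3cr1 (0.9944). Cd33 is a sialic acid-binding inhibitory receptor, C1qc a chain of complement C1q, Cd84 a SLAM-family receptor, Mpeg1 the pore-forming protein perforin-2 of macrophages and Cx3cr1 the fractalkine receptor. These values describe 8 points that share the same libraries and 2 diets, and carry no test.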

How the data were processed

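The authors deposited raw read counts per Ensembl gene, 1 table per library. Per the submitters' processing notes, the tools listed include Bowtie2 2.3.4.3 and HTSeq 0.11.0, beside FastQC 0.11.8, R 3.5.1 and DESeq2 1.10.1, with builds mm10 and GRCm38.p6. No source used here gives their settings, strand use or duplicate removal, so reads of overlapping genes on opposite strands may not be separated. Spike-in rows and the summary rows of the counter were left out of library sizes and tests; 71.6 to 73.4% of CeA reads and 74.05 to 75.51% of mPFC reads in the tables were in genes. CPM are counts per 1000000 counted in genes.

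From these counts, edgeR 4.0.16 (R 4.3.3) was run with filterByExpr at a minimum count of 10 and a total of 15, TMM normalization, a robust quasi-likelihood fit with 1 coefficient per group, and Benjamini-Hochberg adjustment over all genes tested: 11721 for CeA, 12331 for mPFC and 13035 with both regions fitted jointly. Calls were made at an adjusted p under 0.05, and SE is the log2 fold change divided by the square root of F. Exact two-sided permutation tests of log2(CPM + 1) were run for each of the 7 members by diet and by dependence; they are the only test for members too low for the fit, and for the others the edgeR call is the main result. Counting intervals are at 95% and the floor for a count of 0 is 3 counts over the group. Libraries were grouped by the labels, which do not say whether replicates of a group were housed or processed together, so p-values measure the spread between these mice. The fitting steps were tested on simulated data. DESeq2 1.42.0, other size factors, no filter, fits of only the groups compared, omission of libraries holding spike-in RNA, omission of each library and a replicate block were the alternatives.

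Per the labels' protocols, both regions came from each brain, and 15 mouse numbers carry the same diet and history in both regions. These were treated as pairs from 1 animal in the replicate block alone, a fit that left out all other libraries. The correlation of their deviations from group means was -0.0331 to 0.0788 (median 0.0169). No value for unpaired libraries was computed beside it, so it cannot decide whether a shared number marks 1 animal. Mouse 16 carries a control diet label for its CeA library but a PLX5622 label for its mPFC library, so those were not paired, and a shared number does not by itself establish 1 animal. Within a region, groups share no numbers.

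Named genes are the 7 members, their overlapping or neighbouring genes, the 46 purine pathway genes by count with values for called and preset ones, and the 5 genes most like P2ry12. The members and lists were chosen with earlier results of these data known. Marker lists covered homeostatic microglia, border macrophages, oligodendrocytes, endothelium, striatum, central amygdala and cortex; summed levels of 4 cortex genes were 293 to 507 CPM in CeA and 533 to 818 CPM in mPFC.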

Additional observations from a re-analysis of the deposited data

Results flagged for a closer look

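In 11 cases a single library stood apart from the others of its group, out of 56 groups of 4 to 9 libraries checked for the 7 genes. Chance flags about 1 in 20 groups of continuous values, a rate that does not apply to groups in which nearly all libraries are at 0, so the number is not set against it. In each, the gap to the nearest library exceeded Dixon's 95% critical value as a share of the group's range. P2ry12 read 42.9 CPM in CeA control dependent replicate 2, the next library being at 27.8 CPM. P2rx4 read 18.8 CPM in CeA PLX5622 non-dependent replicate 13 (next 10.4 CPM), 8.54 CPM in CeA control dependent replicate 1 (next 16.4 CPM) and 7.53 CPM in CeA PLX5622 dependent replicate 7 (next 13.1 CPM). P2ry6 read 8.54 CPM in that same control dependent replicate 1, from 11 reads, with the next library at 3.46 CPM. P2rx7 read 2.91 CPM, from 6 reads, in mPFC control dependent replicate 9, whose group had a median of 9.36 CPM.

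The other flagged values rest on 1 to 3 reads. P2ry6 read 0.76 CPM in CeA control non-dependent replicate 14, from 1 read against a group median of 4.93 CPM, and 1.42 CPM in mPFC PLX5622 dependent replicate 30, from 3 reads. A single read set P2ry13 at 0.722 CPM in CeA PLX5622 non-dependent replicate 13 and P2ry6 at 0.655 CPM in replicate 47 of that group and at 0.623 CPM in CeA PLX5622 dependent replicate 6.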

How the results depend on the processing

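With no filter on low counts, 5 members were called lower in each CeA diet comparison in place of 2, and the Entpd1 region call of PLX5622 dependent mice was lost (0 in place of 1). With only the 2 groups compared in the fit, 1 member was called in CeA and 3 in mPFC of dependent mice, where Gpr34 in CeA and P2ry13 in mPFC were not tested and the P2rx7 call in mPFC was lost (edgeR adjusted p = 0.0772). In mPFC of non-dependent mice it gave 3 in place of 4, P2ry13 again not being tested. Without the libraries holding spike-in RNA, 1 was called in CeA of dependent mice, and signs turned for differences that were not called: P2rx7 in CeA of dependent mice (0.21), P2rx4 in mPFC of dependent mice (0.01475) and the dependence difference of P2ry12 in CeA on control diet (0.2778). The P2rx4 value in mPFC of dependent mice was also above 0 with no filter (0.002665). Library totals without TMM factors gave 2 region calls in PLX5622 dependent mice. With the mouse as a replicate block, a fit of only the mice with a library in each region, 0 members were called between regions in control non-dependent and in PLX5622 dependent mice.

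With 1 library left out, calls by diet ranged from 2 to 3 in both CeA comparisons, stayed at 4 in mPFC of non-dependent mice and ranged from 3 to 5 in mPFC of dependent mice. Region calls ranged from 0 to 1 in control dependent and in PLX5622 non-dependent mice and from 0 to 2 in PLX5622 dependent mice. Signs turned for P2rx4 in CeA of non-dependent mice (-0.285 to 0.09543), in mPFC of dependent mice (-0.05764 to 0.04701) and between regions in control dependent mice (-0.1935 to 0.03918), and for P2ry12 by dependence in CeA on control diet (-0.2018 to 0.04477), none of them called. The 3 ratios to P2ry12 of P2rx4, P2rx7 and Entpd1 in CeA of dependent mice did not pass correction when any of the 5 control libraries was left out, since 4 against 4 libraries allow no exact p under 0.0286. Beyond what the size of the groups or the number of genes tested sets, the cause was not tested. Depth limits P2ry13, P2ry6 and Gpr34 with PLX5622, where 0 to 7 reads per group leave the remaining share known only within its counting interval.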

Other observations

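Within each diet of mPFC, the level of P2ry12, P2rx4, P2rx7 and Entpd1 was set against the summed level of the 18 homeostatic microglia genes over libraries, 8 relations chosen after the data had been seen. None passed Benjamini-Hochberg correction. The relation with the lowest p was Entpd1 on control diet, with Pearson's r = 0.54 (permutation p = 0.0306, adjusted p = 0.228) and Spearman's rho = 0.503 (permutation p = 0.049, adjusted p = 0.392) over 16 libraries. Without the 2 libraries farthest from the median it was r = 0.536, and it was 0.272 within the 7 non-dependent and 0.773 within the 9 dependent libraries.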
